A study of Mus musculus with 8 samples.

Results

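The transcripts described here encode the nuclear subunits of the last enzymes of mitochondrial respiration, and they were compared between DCP1A immunoprecipitates and input RNA of the mouse ovary. All rows of the count table whose symbol begins with Uqcr, with Cox followed by 4 to 8, or with Atp5 were taken, pseudogenes marked -ps left out, which gave 44 of 23107 genes: 8 of complex III, 19 of complex IV and 17 of ATP synthase. Of these, 41 passed the filter on low counts and were tested, and the 3 that did not were Cox6a2, Cox7b2 and Cox8b. The tissue was the cortex of mouse ovaries at postnatal day 8. No strain, genotype or treatment is named in the labels, which give no difference between the groups other than the immunoprecipitation. In the RIP group (4 libraries), RNA was recovered with an antibody against the decapping cofactor DCP1A (RNA immunoprecipitation), and the input group (4 libraries) was the RNA before that step. The question stated for the study was which RNAs DCP1A binds in primary oocytes, and the labelled material is cortex tissue, not isolated oocytes. The labels do not say which animals or pools each library represents. The p-values therefore reflect the variation among these 8 libraries alone, and that variation may be technical. Immunoprecipitates with a control antibody were not analysed here.

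Complex III (the cytochrome bc complex) takes electrons from ubiquinol and passes them to cytochrome c, and complex IV (cytochrome c oxidase) passes them from there to oxygen. Both pump protons across the inner mitochondrial membrane, and ATP synthase uses their return flow to make ATP. Each of the enzymes combines subunits made inside the mitochondrion with many that are encoded in the nucleus and translated in the cytosol, where their mRNAs can meet cytoplasmic granules such as processing bodies, to which DCP1A belongs. In oocytes of primordial follicles, mitochondria gather around the Balbiani body, an assembly of organelles and RNA beside the nucleus. Only nuclear genes are described here.

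Symbols matched the RefSeq gene table of GRCm38.p6 (mm10) directly for 40 genes and through a synonym for 4. They lie on 18 chromosomes. For 3 rows the symbol misleads. Cox4nb is the present Emc8, a subunit of the membrane protein insertion complex of the endoplasmic reticulum, and its gene stands next to Cox4i1. Atp5s and Atp5sl are the present Dmac2l and Dmac2, which are related to assembly of the respiratory chain and are not subunits of ATP synthase. The remaining rows name subunits or their paralogs.

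Promoters were searched for the letters of factors known from respiratory chain genes, which the choice by symbol did not use. RefSeq promoter windows of GRCm38.p6 (250 bases before to 50 after a start site) were held for 34 of the 44 genes. The letters GCGCATG, a core of the NRF1 site, stood in 7 of these 34 genes (20.6%) and in 4.41% of all 27025 genes with a window. The letters CCGGAAG, a core of ETS factor sites such as that of GABPA, stood in 10 (29.4%) against 9.93% of all genes. AAGATGGC, a YY1-type element, stood in 4 (11.8%) against 3.19%, and TATAAA in 3 (8.82%) against 15.7%. At least 1 of the NRF1, ETS and YY1 letters stood in 16 of the 34 (47.1%, against 15.9% of all genes), so most of the genes held none of them. Both strands were searched, and a site can match on either one, so that a palindromic NRF1 site matches on both. NRF1 and GABPA are known as regulators of respiratory chain genes, but a match is a description of letters and not a bound site. Each stretch below holds the 100 bases before the annotated start, 5′ to 3′, with matches to these letters in capitals. Uqcr10 and Cox7b are shown as genes whose RIP and input libraries did not overlap in level, and their stretches hold none of these letters. Atp5j, whose groups also did not overlap, is not shown, and a stretch of it held an ETS-type and a YY1-type match. Cox6b1 is shown as a gene with a lower RIP mean and an ETS-type match and Atp5g2 as a gene whose groups overlapped, with a palindromic NRF1-type match.
Uqcr10, chr11:4704345-4704444, minus strand: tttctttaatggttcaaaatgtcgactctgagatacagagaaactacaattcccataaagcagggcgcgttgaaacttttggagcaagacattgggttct
Cox7b, chrX:106015600-106015699, plus strand: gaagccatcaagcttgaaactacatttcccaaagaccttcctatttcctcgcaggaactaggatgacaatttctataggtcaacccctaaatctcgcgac
Cox6b1, chr7:30626115-30626214, minus strand: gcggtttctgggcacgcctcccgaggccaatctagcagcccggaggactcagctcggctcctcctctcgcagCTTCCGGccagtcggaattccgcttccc
Atp5g2, chr15:102671048-102671147, minus strand: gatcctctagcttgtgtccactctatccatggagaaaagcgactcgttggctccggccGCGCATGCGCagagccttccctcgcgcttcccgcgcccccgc

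Libraries held 13098154 to 25757620 counts. The 10 largest genes took 12.4 to 31.5% of a library, and factors of the trimmed mean of M-values (TMM) ran from 0.830 to 1.14. Levels are TMM-normalized CPM, the counts scaled to a common library size. Since mRNA lengths were not used here, neither levels nor shares of a family's counts compare transcript numbers between genes. Of 14667 genes tested, 6 passed at an adjusted p of 0.05 (0.0409%, edgeR), and 0 of the 41 genes described here did. All 6 were lower in RIP, and 0 genes were called higher, with 462 higher at an unadjusted p under 0.05 and 13 called higher by DESeq2. Markers of the cortex were present in every library: summed levels ran from 1523 to 2518 CPM for 12 oocyte genes, 1125 to 2704 for 10 granulosa genes and 4273 to 8073 for 8 stromal genes. Of these 3 marker lists 0 genes passed, with medians of log2 RIP over input between -0.01 and 0.01. Single genes went both ways, with 6 oocyte, 5 granulosa and 4 stromal genes lower. At an unadjusted p under 0.05 there were 0, 1 and 2 genes, where 4.28% of all genes were lower and 3.15% higher. Markers of other cells had lower sums, over shorter lists. Those of immune cells summed to 17.2 to 30.1 CPM in RIP and 9.61 to 16.3 in input. Those of surface epithelium summed to 111 to 240 CPM in RIP and 104 to 143 in input. Their median log2 fold changes were 1.31 (2 genes tested) and 0.34 (5 tested). For endothelial genes the median was -0.27 (4 tested), and the 1 erythroid gene tested was at -0.22. Endothelial genes summed to 45.2 to 96.9 and erythroid genes to 19.3 to 55.4 CPM over all libraries. The part of these cells in the results was not tested. In bulk tissue, fewer cells of a type and less RNA per cell cannot be told apart.

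As a group the respiratory genes lay slightly lower in RIP, without a call for any gene. Of the 41 tested, 36 had a negative log2 fold change of RIP over input (87.8%), against 51.7% of all genes tested. The genes varied together between libraries, so their signs are not separate results. Inputs 1 and 2 both lay above inputs 3 and 4 for 21 of the 41 and both below for 1. Over all genes these shares were 23.3% and 27.5%. The median was -0.30, against -0.02 over all genes. At an unadjusted p under 0.05, 8 were lower, where 4.28% of all genes were, and 0 were higher, where 3.15% were. The 8 were Uqcrb, Uqcr10 and Uqcrq of complex III, Cox7b, Cox7c and Cox6b1 of complex IV, and Atp5e and Atp5j of ATP synthase. The lowest adjusted p among the 41 was 0.622 by edgeR and 0.241 by DESeq2. The count of 8 varied with single libraries: it was 3 without input 2 (5.61% of all genes in that fit), 4 without RIP 3 (3.16%) and 4 without RIP 4 (4.94%). It was 12 without input 4 (4.31%), and 6 to 9 without each of the remaining libraries (2.44 to 4.90%). Within libraries numbered 1 and 2 it was 7 (3.86% of all genes). Within those numbered 3 and 4 it was 2, a share near the 5.20% of all genes there. The labels do not give this split by number, so it is no known factor of the design. By complex, the median was -0.21 for complex III, -0.35 for complex IV and -0.27 for ATP synthase. Leaving out each library in turn gave medians of -0.34 (without RIP 1) to -0.13 (without RIP 4) for complex III. They were -0.52 (without input 4) to -0.16 (without input 2) for complex IV, and -0.32 to -0.18, again without these inputs, for ATP synthase. The subunits of complex IV without Cox4nb were negative in 15 of 15 tested, among them Cox4i2 at -0.003 ± 0.34 and Cox8a at -0.02 ± 0.31. Within libraries numbered 3 and 4, Cox4i2, Cox8a and Cox6a1 were positive, at 0.23, 0.39 and 0.12. For complex I, the first enzyme of the chain, genes were taken by symbol (Nduf followed by a, b, c, s or v). That pattern also takes Ndufa4 and any assembly factor named Ndufaf. These 42 genes had a median of -0.33 with 34 negative and 5 lower at an unadjusted p under 0.05.

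**Figure D1:**
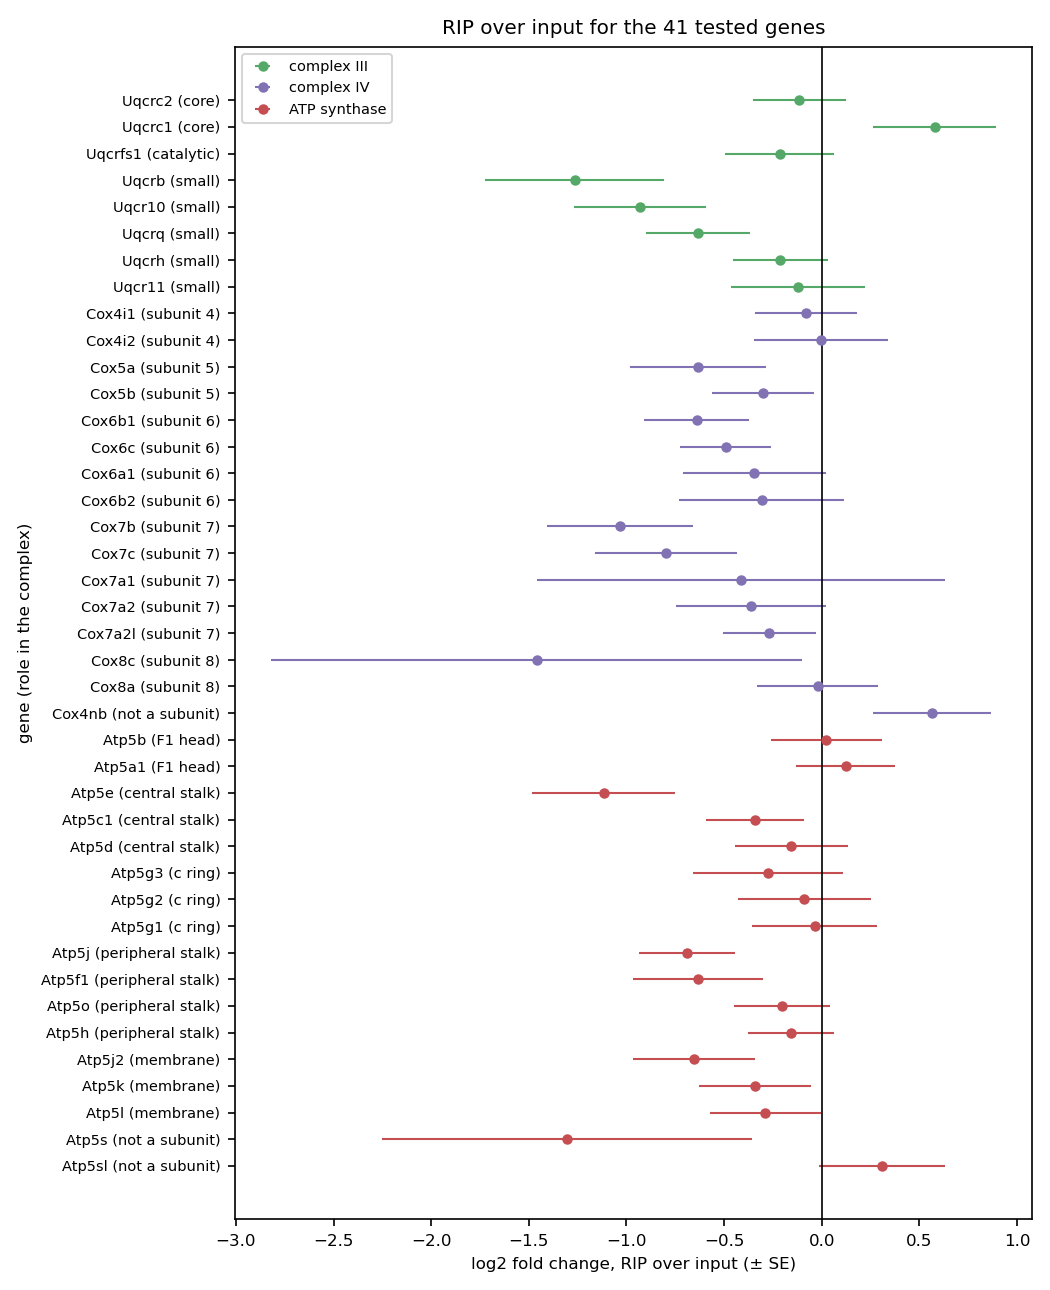
Log2 fold change of RIP over input (horizontal axis, ± SE, 4 libraries a group) for the 41 tested genes, ordered by complex and role on the vertical axis. Cox8c at -1.46 and Atp5s at -1.30 lie lowest, with the wide errors of low counts, Uqcrb, Atp5e, Cox7b and Uqcr10 lie near -1, Uqcrc1 and Cox4nb lie near 0.6, and the catalytic head genes Atp5a1 and Atp5b lie near 0.

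Among the Uqcr rows of complex III, Uqcrc1 had the only positive fold change, and the most negative ones were those of small subunits. Cyc1, a subunit of this complex outside the choice by symbol, had a log2 fold change of 0.50 ± 0.37. The core genes Uqcrc1 and Uqcrc2 encode the large matrix-facing proteins of the complex. Uqcrc1 (chromosome 9, 108936648 to 108949641) was at 164, 223, 101 and 90.0 CPM in inputs 1 to 4 and at 298, 222, 205 and 138 CPM in RIP 1 to 4. RIP 1 lay above every input, and input 2 lay above the other 3 RIP libraries, so the groups overlapped. Its log2 fold change was 0.58 ± 0.31 (SE, n = 4 each, edgeR adjusted p = 0.712), the highest of the 41 genes. Uqcrc2 was at 64.8 ± 8.7 CPM in the inputs and 59.9 ± 6.8 in RIP (SD), and Uqcrfs1, the Rieske iron-sulfur protein that carries the electron, at 59.99 ± 13.05 and 51.7 ± 14.2 CPM.

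The 5 small subunits of complex III all had negative fold changes, with a median of -0.63. Uqcrb (chromosome 13, 66900576 to 66905350), a small matrix-side subunit beside the ubiquinone site, was at 44.1, 44.7, 50.5 and 14.1 CPM in inputs 1 to 4. In RIP 1 to 4 it was at 6.13, 14.0, 16.3 and 27.1 CPM. Input 4 lay among the RIP libraries, and the other 3 inputs lay above all of them. The log2 fold change was -1.27 ± 0.46, and it was -2.13 within libraries numbered 1 and 2 and -0.58 within those numbered 3 and 4.

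Uqcr10 (chromosome 11, 4701968 to 4704344), a small subunit in the membrane, was at 27.9, 49.2, 28.4 and 28.1 CPM in the inputs and 21.9, 20.9, 14.6 and 12.7 CPM in RIP. All RIP libraries lay below all inputs, and input 2 stood above the other inputs. The log2 fold change was -0.93 ± 0.34, with -0.85 and -1.05 within the pairs of numbers. Uqcrq (chromosome 11, 53427922 to 53430831), another small membrane subunit, was at 118, 114, 68.8 and 70.6 CPM in the inputs and 63.8, 69.2, 57.4 and 49.0 CPM in RIP. RIP 2 lay just above input 3, the only overlap, and the log2 fold change was -0.63 ± 0.26, with -0.81 and -0.39 within the pairs of numbers. One end of Uqcrq overlaps the oocyte growth factor gene Gdf9 (chromosome 11, 53430774 to 53437904). Whether counting used strand is not given, so reads of such overlaps cannot be told apart, and 15 of the 41 tested genes overlap another annotated gene. Uqcrh, the hinge protein near cytochrome c, and Uqcr11 had log2 fold changes of -0.21 ± 0.24 and -0.12 ± 0.34.

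**Figure D2:**
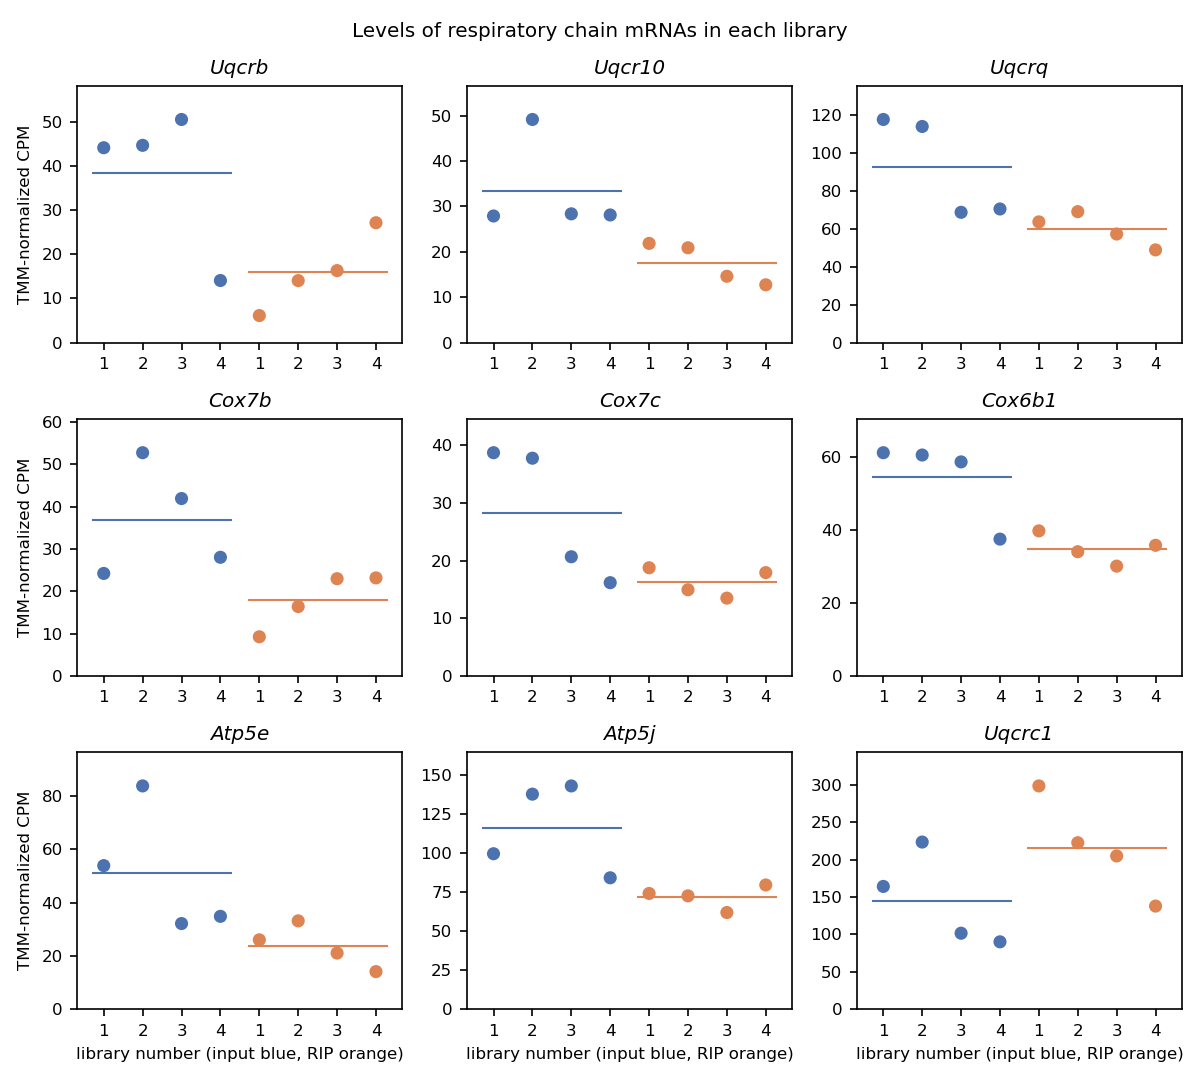
TMM-normalized CPM (vertical axis, from 0) of 9 genes in each of the 4 input (blue) and 4 RIP (orange) libraries, with lines at the group means. The 8 genes with an unadjusted p under 0.05 have lower RIP means, Uqcr10, Cox7b and Atp5j without overlap between the groups, and Uqcrc1 has a higher RIP mean with overlap.

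In complex IV the nuclear subunits surround a catalytic core that is made in the mitochondrion. Cox7b (chromosome X, 106015700 to 106022450), a small subunit needed for a complete complex, was at 24.2, 52.7, 41.9 and 28.02 CPM in inputs 1 to 4 and 9.23, 16.4, 23.0 and 23.2 CPM in RIP 1 to 4. All RIP libraries lay below all inputs, though RIP 4 at 23.2 and input 1 at 24.2 CPM nearly met. The log2 fold change was -1.03 ± 0.37, with -1.58 within libraries numbered 1 and 2 and -0.60 within 3 and 4. Cox7c (chromosome 13, 86044798 to 86046795), another small subunit, was at 38.7, 37.8, 20.7 and 16.2 CPM in the inputs and 18.8, 14.9, 13.5 and 17.9 CPM in RIP. Inputs 1 to 3 lay above all RIP libraries and input 4 lay among them. The log2 fold change was -0.80 ± 0.36, and it was -1.19 within libraries 1 and 2 but -0.23 within 3 and 4. A small nucleolar RNA gene, Gm22574, lies inside Cox7c at 86044989 to 86045048, and the counts cannot separate it from the host. Cox6b1 (chromosome 7, 30616971 to 30626114), a subunit on the cytochrome c side, was at 61.2, 60.5, 58.7 and 37.5 CPM in the inputs and 39.7, 34.03, 30.1 and 35.8 CPM in RIP. Input 4 lay below RIP 1, and the other inputs lay above all RIP libraries, with a log2 fold change of -0.64 ± 0.27. Cox6c, the complex IV row with the highest mean count, was at 240, 291, 230 and 179 CPM in the inputs and 208, 162, 151 and 148 CPM in the RIP libraries. RIP 1 lay above input 4, and the log2 fold change was -0.49 ± 0.23.

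Several complex IV subunits exist as a general form and a form of particular tissues. Of subunit 4, the general Cox4i1 was at 189 ± 37 CPM in the inputs and 179 ± 54 in the RIP libraries, and Cox4i2, known from lung and oxygen sensing, at 22.8 ± 5.8 and 22.7 ± 6.5 CPM. Cox4i2 made up 10.98 ± 3.08% of the counts of the pair in input and 12.02 ± 4.55% in RIP. Of subunit 6b, the testis form Cox6b2 held 19.1 ± 7.4% and 22.5 ± 4.6% of the pair's counts, with 82 to 400 counts a library. Of subunit 6a, all counts fell on Cox6a1, at 70.7 ± 36.3 CPM in the inputs and 55.6 ± 22.0 in RIP, and the heart and muscle form Cox6a2 had 0 counts in all 8 libraries. A count of 0 allows up to 3 counts a library, or 0.102 to 0.255 CPM. The muscle form Cox8b had 1 count in RIP 4 and 0 in the other libraries, and the testis form Cox7b2 had 10 counts in RIP 2, 3 in RIP 3 and 0 in the others. Of the 8 muscle markers, Myh1, Ckm, Myl1 and Actc1 had 0 counts in all libraries, and all 8 together summed to at most 8.07 CPM.

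Among the forms of subunits 7a and 8, the groups overlapped for every gene. Cox7a2 was at 33.9 ± 12.5 CPM in the inputs and 26.4 ± 11.96 in RIP, and Cox7a2l, which joins complexes into supercomplexes, at 118 ± 30 and 97.8 ± 8.1 CPM. The muscle form Cox7a1 varied most within input, with 6, 81, 242 and 5 counts in inputs 1 to 4 and 17, 86, 73 and 65 in RIP 1 to 4. Its log2 fold change was -0.41 ± 1.05, and by limma voom with sample weights it was 1.76. By edgeR it was 0.61 with a replicate block and 0.25 without input 3, so no direction held over these settings. Cox8a was at 91.0 ± 40.3 CPM in the inputs and 89.5 ± 17.7 in RIP. The testis form Cox8c had 0, 51, 36 and 74 counts in inputs 1 to 4 and 3, 23, 18 and 17 in RIP 1 to 4, with a log2 fold change of -1.46 ± 1.36. Cox5a, a matrix-side subunit, was at a log2 fold change of -0.63 ± 0.35, and Cox5b, which binds zinc, at -0.30 ± 0.26. Cox4nb, the row that is no subunit, was at 29.3, 29.3, 52.5 and 39.9 CPM in the inputs and 77.4, 60.2, 45.8 and 40.1 in RIP. Its groups overlapped, and its log2 fold change was 1.23 within libraries numbered 1 and 2 and -0.11 within 3 and 4.

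ATP synthase consists of a catalytic head, a turning central stalk on a ring of c subunits, and a peripheral stalk that holds the head still. The head genes had fold changes close to 0. Atp5a1, the alpha subunit and the row with the highest mean count here, was at 830, 757, 512 and 539 CPM in inputs 1 to 4 and 946, 709, 660 and 555 CPM in RIP 1 to 4 (log2 0.12 ± 0.25). Atp5b, the catalytic beta subunit, was at 436 ± 162 CPM in the inputs and 443 ± 112 in the RIP libraries (0.02 ± 0.28). A small nucleolar RNA gene, Snord59a, lies inside Atp5b. In both genes the inputs spread more widely than the group means differed.

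Of the central stalk genes, Atp5e stood lowest. Atp5e (chromosome 2, 174461075 to 174464101), the epsilon subunit, was at 53.9, 83.8, 32.1 and 34.8 CPM in inputs 1 to 4 and 26, 33.1, 21.0 and 14.1 CPM in RIP 1 to 4. RIP 2 lay just above input 3, the only overlap. The log2 fold change was -1.12 ± 0.37 (edgeR adjusted p = 0.622), with -1.22 and -0.93 within libraries numbered 1 and 2 and within 3 and 4. The gamma subunit gene Atp5c1 was at -0.34 ± 0.25 and the delta subunit gene Atp5d at -0.16 ± 0.29. In the peripheral stalk, Atp5j (chromosome 16, 84827871 to 84835857), coupling factor 6, was at 99.7, 138, 143 and 84.2 CPM in the inputs and 74.2, 72.6, 61.9 and 79.6 CPM in RIP. All RIP libraries lay below all inputs, and the log2 fold change was -0.69 ± 0.25 (-0.70 within libraries 1 and 2, -0.69 within 3 and 4). Atp5j overlaps Gabpa (chromosome 16, 84834891 to 84863783), which encodes a regulator of such genes and had a log2 fold change of -0.91 ± 0.29. Reads of the shared stretch cannot be told apart, and their part in either value was not tested. The stalk genes Atp5f1, Atp5o and Atp5h were at -0.63 ± 0.33, -0.20 ± 0.25 and -0.16 ± 0.22. Atp5f1 was at 46.1, 118, 81.9 and 42.7 CPM in the inputs and 58.6, 42.7, 35.6 and 49.3 in RIP, with inputs 2 and 3 apart from the rest.

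The membrane subunits and the c ring completed the enzyme. Atp5j2, the f subunit, was at 60.5, 61.8, 33.5 and 35.3 CPM in the inputs and 32.1, 39.9, 25.1 and 24.2 CPM in RIP. RIP 2 lay above inputs 3 and 4, and the log2 fold change was -0.65 ± 0.31. The e and g subunit genes Atp5k and Atp5l were at -0.34 ± 0.29 and -0.29 ± 0.28. The c subunit is encoded by 3 genes whose mature proteins are alike, and the groups overlapped for all 3: Atp5g1 at -0.04 ± 0.32, Atp5g2 at -0.09 ± 0.34 and Atp5g3 at -0.27 ± 0.38. Their shares of the family's counts were 20.6 ± 2.6%, 39.3 ± 6.2% and 40.1 ± 5.0% in input and 21.9 ± 1.9%, 42.2 ± 4.0% and 35.9 ± 5.5% in RIP. How reads common to these genes or to their processed copies were divided is not given. The Dmac2 row Atp5sl was at 0.31 ± 0.32, and the Dmac2l row Atp5s, with 3 to 133 counts a library, at -1.30 ± 0.95.

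Over the 41 tested genes, the RIP libraries lay below all inputs for 3 (Uqcr10, Cox7b and Atp5j), where 2.52% of all genes did, and above all inputs for 0, where 2.77% did. With CPM of total counts, Cox7b overlapped, and Atp5e, Cox6b1, Cox6c and Uqcrq joined Uqcr10 and Atp5j, so that 6 lay below all inputs, where 1.73% of all genes did, and 0 above, where 3.65% did.

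A second view, chosen after the values were seen, sets each gene against a partner of the same complex in the same library, which no scaling of libraries can move. The partner was the row of the complex with the highest mean count. Per 100 counts of Atp5a1, Atp5e had 6.49, 11.1, 6.28 and 6.46 counts in inputs 1 to 4 and 2.75, 4.67, 3.19 and 2.54 in RIP 1 to 4. The groups did not overlap, and the mean ratio was 2.30-fold lower in RIP. Atp5j2 had 7.29, 8.16, 6.55 and 6.55 in input and 3.40, 5.63, 3.80 and 4.37 in RIP, also without overlap. Atp5b had 65.0 ± 12.6 in input and 61.6 ± 1.6 in RIP, a difference smaller than the spread of the inputs. Of the 16 other ATP synthase rows, 3 (Atp5e, Atp5j2 and Atp5s) were lower in all RIP libraries than in all inputs, where 1.85% of all genes were, and 0 were higher, where 2.44% were. Of these, Atp5s is no subunit of the enzyme and had few counts, with 3 in RIP 2 and 29 in RIP 4.

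Per 100 counts of Uqcrc1, Uqcr10 had 17.0, 22.0, 27.96 and 31.3 counts in inputs 1 to 4 and 7.33, 9.39, 7.14 and 9.25 in RIP 1 to 4. Uqcrq had 67.3 ± 11.7 in input and 29.0 ± 6.0 in RIP, and Uqcr11 had 30.7 ± 3.9 and 18.4 ± 5.2. These 3 of 7 complex III rows were lower without overlap, where 5.24% of all genes were lower and 0.28% higher by this ratio. Since Uqcrc1 itself had a higher mean in RIP, ratios to it were lower for many genes. Uqcrb, with 15.6 to 49.8 in input and 2.05 to 19.7 in RIP, overlapped. Per 100 counts of Cox6c, 0 of 15 complex IV rows were lower (0.334% of all genes) and 1 was higher, where 16% of all genes were higher. That 1 was Cox4nb, which is no subunit of the complex. Cox6c itself had a lower mean in RIP.

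**Figure D3:**
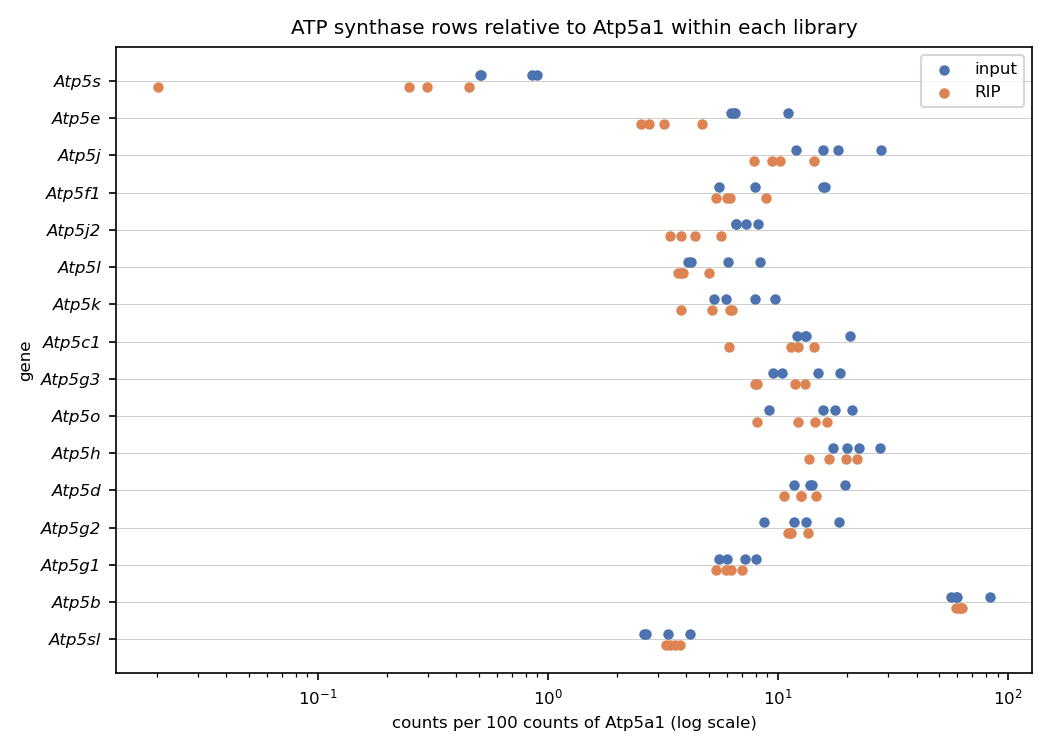
Counts per 100 counts of Atp5a1 in the same library (horizontal log axis) for the 16 other ATP synthase rows, with 4 input (blue) and 4 RIP (orange) libraries each. Atp5s, Atp5e and Atp5j2 have RIP libraries wholly to the left of the inputs, and Atp5b lies at 56.5 to 83.8 in input and 59.5 to 63.0 in RIP.

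The inputs differed among themselves by as much as the groups did. Summed over complex III, inputs 1 to 4 held 621, 709, 478 and 409 CPM and RIP 1 to 4 held 650, 572, 473 and 412 CPM. Complex IV summed to 1312, 1446, 1025 and 878 CPM in the inputs and 1163, 974, 876 and 808 CPM in the RIP libraries. ATP synthase summed to 2501, 2726, 1758 and 1624 CPM in the inputs and 2492, 2077, 1825 and 1639 CPM in the RIP libraries. Libraries numbered 1 and 2 lay above those numbered 3 and 4 in each of these sums in both groups. Gene by gene, inputs 1 and 2 both lay above inputs 3 and 4 for 21 of the 41, against 23.3% of all genes, and RIP 1 and 2 above RIP 3 and 4 for 23, against 23.7%. With CPM of total counts these were 16, against 14.8%, and 14, against 13.3%. Among them were Atp5b, at 500 and 634 CPM in inputs 1 and 2 and 289 and 321 in inputs 3 and 4, and Cox8a, at 138 and 110 against 51.8 and 63.5 CPM. The 10 largest genes took 30.5 and 30.9% of inputs 1 and 2 but 12.4 and 16.4% of inputs 3 and 4, and the part of this in the sums was not tested. As shares of all counts the sums of all 41 genes were 0.403, 0.437, 0.372 and 0.319% in inputs 1 to 4 and 0.357, 0.358, 0.335 and 0.322% in RIP 1 to 4. The ratio of the RIP mean to the input mean was 0.950 for complex III, 0.820 for complex IV and 0.933 for ATP synthase. Each difference was smaller than the SD of the inputs. For complex IV, at 1165 ± 260 CPM in the inputs and 955 ± 154 in the RIP libraries, it was larger than the SD of the RIP libraries. With CPM of total counts, complex IV summed to 1155 ± 139 in the inputs and 941 ± 26.5 in the RIP libraries (SD, n = 4 each), a difference larger than either SD, while RIP 1 still lay above input 4. Within libraries numbered 1 and 2 the median log2 fold changes were -0.14, -0.49 and -0.36 for complex III, complex IV and ATP synthase, and within 3 and 4 they were -0.34, -0.23 and -0.11.

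**Figure D4:**
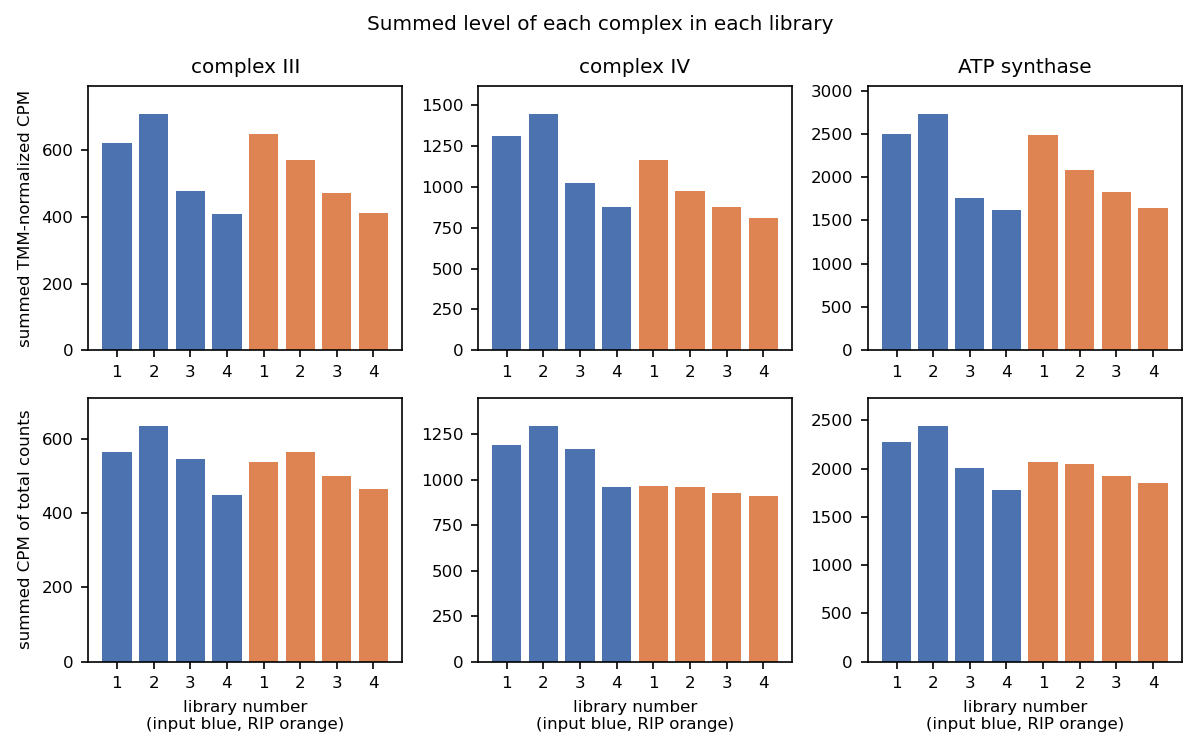
Summed level of the tested genes of each complex in each library (input blue, RIP orange, bars from 0), as TMM-normalized CPM above and as CPM of total counts below. Inputs 1 and 2 are the highest inputs in each panel, and the RIP libraries lie within the range of the inputs except for complex IV, where RIP 3 and 4 (above) and RIP 2 to 4 (below) lie under the lowest input.

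Of the other genes of the pathway, 43 of 57 listed had a row in the count table under the listed symbol, and all 43 were tested. Their median log2 fold change was -0.30, with 29 negative. Of these, 0 passed over all genes, and 4 were lower and 1 higher at an unadjusted p under 0.05, where 4.28% and 3.15% of all genes were. The 4 were Cycs (cytochrome c, -0.80 ± 0.35), Usmg5 (a membrane subunit of ATP synthase, -0.99 ± 0.38), Tfam (the mitochondrial DNA packaging factor, -0.94 ± 0.35) and Gabpa, and the 1 was Cox10 (heme biosynthesis for complex IV, 0.60 ± 0.27). The assembly and regulatory genes of ATP synthase, Atpaf1, Atpaf2, Tmem70 and Atpif1, were at -0.57 to -0.47. Of 22 assembly genes listed for complex IV, 12 had a row and were tested, with a median of -0.26 and 5 positive. Of 6 for complex III, 3 had a row and were tested, all negative. The 12 electron carriers and other subunits had a median of -0.28 with 3 positive. The 3 carriers of phosphate and ADP had a median of -0.01 with 1 positive, and the 8 regulators of mitochondrial biogenesis had a median of 0.09 with 5 positive.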

How the data were processed

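Estimated counts (expected counts) of 23107 genes in 4 input and 4 RIP libraries were used as deposited by the authors, on mm10 per the submitters' processing notes. Per the labels' protocols, a Magna RIP kit served for the immunoprecipitation and a stranded SMARTer Pico kit for total RNA libraries. The aligner, the counter, the annotation and the strand setting of the counting are not stated in those sources. At most 1.85% of a library's values were not whole (tolerance 1e-09), and counts were rounded.

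RIP was compared with input over the whole table in R 4.3.3 with edgeR 4.0.16 (TMM, filterByExpr with a minimum count of 10 and total of 15, robust quasi-likelihood fit, Benjamini-Hochberg, threshold 0.05). The fit was run on simulated data as a check of the code, and no result here rests on it. SEs are the log2 fold change divided by the root of F. Alternatives were other scalings and filters, DESeq2 1.42.0, limma 3.58.1 voom, blocks and left-out libraries. Same-numbered libraries' deviations correlated at 0.0915 to 0.178, which did not show that the numbers pair them. The genes, lists and tests were chosen with earlier results of these data known. Named were the 4 genes of each complex with the lowest p, its highest count, isoform families and genes whose groups did not overlap; others are given as values. The mitochondrial ribosome was not analysed here.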

Additional observations from a re-analysis of the deposited data

Results flagged for a closer look

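In 4 of 88 sets of 4 libraries a single library stood far from the others by Dixon's criterion, where chance gives about 1 in 20. Cox6a1 was at 88.5 CPM in RIP 1 and at 42.9 to 46.6 in the other RIP libraries. Uqcr10 was at 49.2 CPM in input 2 and at 27.9 to 28.4 in the other inputs. Input 4 was low for Cox6b1, at 37.5 CPM against 58.7 to 61.2, and for Uqcrh, at 59.9 against 81.4 to 85.2 CPM. The part of library preparation or depth in these values was not tested.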

How the results depend on the processing

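For the 12 genes with the lowest p or without overlap, 240 of 240 fold changes under the 20 alternatives kept their direction. These genes were chosen on the main fit, and the alternatives reuse its libraries, so a kept direction was largely given beforehand. None of the 12 passed over all genes in any alternative. The lowest adjusted p was 0.0750 (Atp5e, with libraries 1 and 2 against 3 and 4 as a block in edgeR), a split that the labels do not give. Of 260 values of the other named genes, only that of Cox7a1 by limma voom, at 1.76, moved by more than the spread of the libraries. The count of respiratory genes called stayed 0 in all 20, with 2 (within libraries 3 and 4) to 12 (without input 4) lower at an unadjusted p under 0.05, against 2.44 to 7.25% of all genes. Medians and summed levels of the complexes moved by less than the spread between libraries, but that spread was wide. For complex III, complex IV and ATP synthase it was 0.28, 0.30 and 0.28 in log2, beside medians of -0.21, -0.35 and -0.27. For the sums it was 0.33, 0.28 and 0.32, beside log2 ratios of -0.07, -0.29 and -0.10. With spreads of this size, the comparison could not show that these values held. Over all genes, the 6 lower and 0 higher calls became 42 and 13 with a replicate block, 43 and 12 with the grouping of numbers as a block, 24 and 3 within libraries 1 and 2, and 43 and 13 by DESeq2. Without a library they ranged from 4 to 16 lower and from 0 to 1 higher, with 15 lower without input 3, and 16 lower and 1 higher without RIP 1. The cause was not tested. No scaling moved the median of all genes by over 0.1. With a common biological coefficient of variation of 0.559 and a median SE of 0.31 for these genes, none of the differences seen here was called.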
